A study of Mus musculus with 12 samples.

Results

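The genes described here are the collagens, whose symbols start with Col, and 21 named genes of the structural extracellular matrix such as Lox, Dcn, Tnc, Thbs1 and Smoc1. Of these, 55 had a probe on the array (37 collagens and 18 others), and 39 of the 55 (23 collagens and 16 others) were members, meaning that their probe was above background, at a detection p-value under 0.05, on both arrays of at least 1 of the 6 groups. The members were 39 of the 10031 features (9251 named genes and 780 unnamed probes) that passed the same filter, and where several probes of a gene passed, the brightest was taken. Another 3 genes of the definition were not analysed here.

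RNA came from mouse embryonic fibroblasts (MEFs) of C57BL/6 mice, taken from embryos at E13.5, immortalized by the 3T3 protocol and grown in DMEM with 10% BCS. They were WT, Rela-/-Nfkb2-/-, which lack RelA and the Nfkb2 product p100, or Rela-/-Relb-/-Rel-/-, which lack RelA, RelB and cRel. Cells of each genotype were left untreated or received recombinant TNF at 10 ng/ml for 6 h, with 2 arrays in each of the 6 groups. The design asks how the matrix genes of a cell answer to TNF when NF-κB is complete, short of RelA and p100 or without RelA, RelB and cRel, and how the lines differ before TNF. The sources used here do not say whether replicate arrays hold separate cultures. The p-values therefore cover the spread between these arrays alone, which may be technical. A genotype may also stand for a single line, so genotype and line cannot be told apart.

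Collagens are triple helices of chains that are modified in the endoplasmic reticulum, secreted, trimmed and cross-linked outside the cell by lysyl oxidases. Fibrillar collagens make the fibres of connective tissue, collagen IV makes the sheet of basement membranes, and proteoglycans, thrombospondins, tenascins and SPARC-family proteins tune fibre growth and the attachment of cells. Fibroblasts are the main makers of this material, and TNF, an inflammatory cytokine that acts largely through NF-κB, is known to change it in fibroblasts.

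Signals are log2 intensities after background correction and quantile normalization, and were compared only within a probe. Median raw signals were 94.9 to 141.5 per array, with 11637 to 12599 probes above background. Rela had a log2 signal of 12.60 to 13.22 on the WT arrays and of 10.05 to 10.80 on the 8 mutant arrays, and Relb was detected on only 1 of 4 arrays of Rela-/-Relb-/-Rel-/- cells. Nfkb2 was above background throughout and Rel nowhere, but whether the probes fall inside the deleted sequence was not determined, so they do not check the genotypes. Of 11 fibroblast markers, 9 were above background on both untreated WT arrays, 10 in Rela-/-Nfkb2-/- cells and 7 in Rela-/-Relb-/-Rel-/- cells. Thy1, a defining fibroblast surface marker, was above background in Rela-/-Nfkb2-/- cells and not on the WT or Rela-/-Relb-/-Rel-/- arrays. The summed signal of the 6 epithelial markers ranged from 157 to 342 over WT and Rela-/-Nfkb2-/- cells, against 2610 to 3732 in Rela-/-Relb-/-Rel-/- cells, a sum carried mostly by Krt8, a keratin of simple epithelia. Krt19, another keratin, read 5.93 and 5.97 in untreated WT, 7.64 and 7.71 in Rela-/-Nfkb2-/- and 8.73 and 8.36 in Rela-/-Relb-/-Rel-/- cells. Krt18, Cldn4 and Esrp1 were not above background in any group. Cdh1 read 6.66 and 6.29 in untreated Rela-/-Relb-/-Rel-/- cells against 6.42 and 6.46 in WT. Of 8 endothelial markers, 3 (Egfl7, Kdr and Tek) were above background on both untreated arrays of each genotype. Egfl7 read 9.76 and 9.67 in untreated WT, 10.77 and 10.61 in Rela-/-Nfkb2-/- and 10.15 and 9.80 in Rela-/-Relb-/-Rel-/- cells. The others (Cdh5, Emcn, Pecam1, Tie1 and Vwf) were not above background in any group. Haematopoietic Ptprc was not either, and of the 6 haematopoietic markers only Fcer1g was above background on both arrays of a group (Rela-/-Relb-/-Rel-/- TNF). In bulk RNA, fewer cells of a type and less RNA per cell cannot be told apart. Replicate arrays of the mutant groups were further apart (SD of the replicate difference 0.46 to 0.67 over all features) than those of WT (0.27 and 0.30), and 1 shared estimate of the spread was used for all groups, which favours calls in the mutants over calls in WT.

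A gene rose, fell, or was higher or lower when limma's moderated test, adjusted by Benjamini-Hochberg over all 10031 features, gave an adjusted p below 0.05. Standard errors follow the ± sign. Where neither array of a group was above background, "at least" precedes a lower bound on the ratio, taken against the lowest signal that was above background on those arrays. Of the 39 members, 23 were above background on all 12 arrays. The member nearest to the detection limit was Postn, whose larger detection p in its best group was 0.0451, and the nearest gene outside was Col14a1, at 0.0526. Col14a1 was above background on 4 arrays but on no complete group, Col11a2 on 2 and Col9a2 on 1, and the other 13 genes outside (Col10a1, Col13a1, Col15a1, Col19a1, Col23a1, Col24a1, Col25a1, Col26a1, Col27a1, Col6a6, Col9a3, Eln and Fbln5) on none. A member that passed only through the group in which it is bright had to differ between groups, so counts are also given for the 23.

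**Figure D1:**
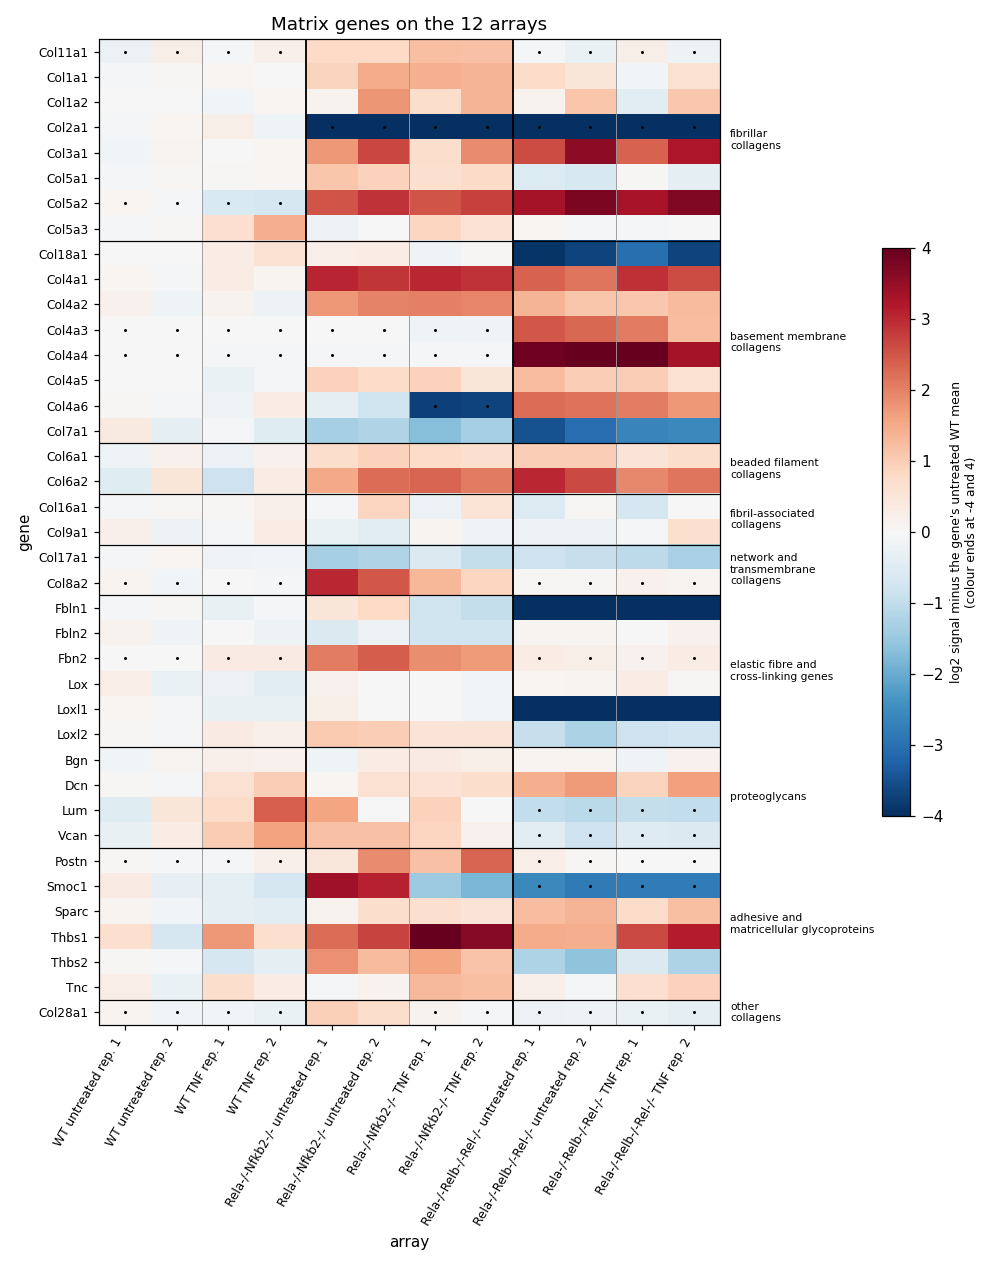
Heat map of the 39 matrix genes (rows, ordered by role) on the 12 arrays (columns), with colour for the log2 signal minus the gene's mean on the 2 untreated WT arrays and a black dot where a group had no array above background. The colour ends at -4 and 4. Col2a1 is blue in both mutant lines, Loxl1 and Fbln1 in Rela-/-Relb-/-Rel-/- cells, and Smoc1 and Col4a6 turn from red or pale to blue in Rela-/-Nfkb2-/- cells once TNF was given.

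Before TNF, more matrix genes were higher than lower in Rela-/-Nfkb2-/- cells. Among the 39 members 18 were higher and 3 lower than in WT, where 20.5% of all features were called (9.85% higher and 10.6% lower), and the median difference was 0.80 on the log2 scale against -0.02 over all features. Of the 23 members above background on every array, 11 were higher and 0 lower, with 15.1% of the 7425 features of that kind called in a fit of their own. Rela-/-Relb-/-Rel-/- cells had 13 members higher and 10 lower than WT, with 37.7% of all features called (17.2% higher and 20.5% lower), and a median of 0.09 against -0.02. Of the 23, 15 were called, against 34.2% of their kind. Set against each other, Rela-/-Relb-/-Rel-/- cells had 6 members higher and 15 lower than Rela-/-Nfkb2-/- cells, with 33.6% of all features called (15.8% higher and 17.8% lower) and a median of -0.57 against 0.02, and 10 of the 23 were called, against 28.9%. These comparisons share their untreated arrays, so their values are given side by side and not as independent results.

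**Figure D2:**
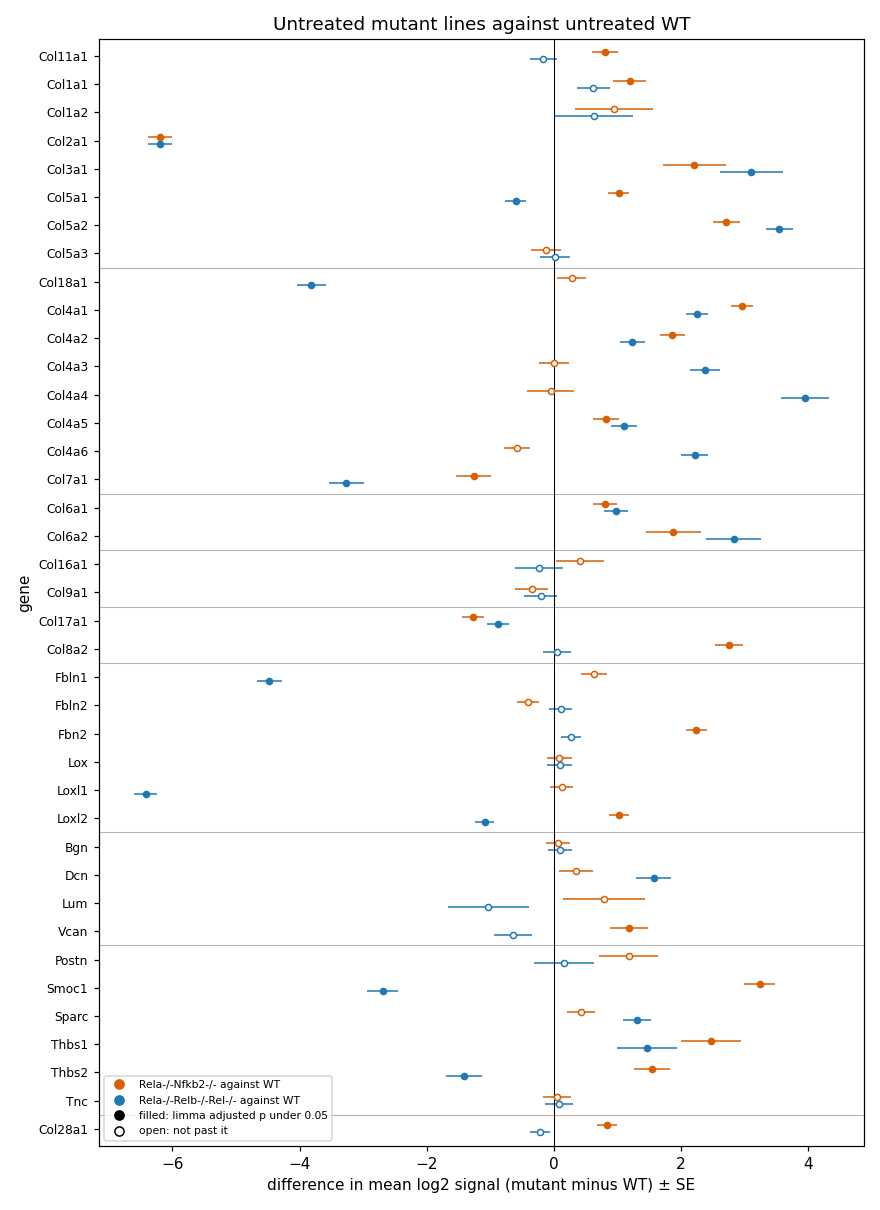
Difference in mean log2 signal ± SE between each untreated mutant line and untreated WT for the 39 matrix genes, 2 arrays a group, with filled points at a limma adjusted p under 0.05. Both lines share the WT arrays. Col2a1 lies at -6.20 for both, while Loxl1 lies at 0.12 for Rela-/-Nfkb2-/- and at -6.42 for Rela-/-Relb-/-Rel-/- cells, and Smoc1 at 3.23 and -2.69.

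Among the fibrillar collagens, 5 of 8 members were higher and 1 was lower than WT in Rela-/-Nfkb2-/- cells, and 2 were higher and 2 lower in Rela-/-Relb-/-Rel-/- cells. Col3a1, the chain of collagen III that is laid down with collagen I in pliable tissue, read 8.89 and 9.08 in untreated WT, 10.72 and 11.66 in Rela-/-Nfkb2-/- cells and 11.61 and 12.57 in Rela-/-Relb-/-Rel-/- cells. Its mutant arrays were all above the WT arrays, by 2.21 ± 0.49 (adjusted p = 0.0119) and 3.11 ± 0.49 (adjusted p = 0.000995). A dimmer second probe of Col3a1, above background on 5 arrays, gave 0.68 (adjusted p = 0.13, not called) and 1.69 (adjusted p = 0.00136). Col5a2, a chain of collagen V, which starts collagen I fibrils, read 5.81 and 5.66 in WT, 8.27 and 8.63 in Rela-/-Nfkb2-/- cells and 9.07 and 9.49 in Rela-/-Relb-/-Rel-/- cells. WT cells were not above background for Col5a2, so it was at least 5.96-fold and at least 10.6-fold higher in the mutant lines (adjusted p = 2.37e-05 and 1.91e-06), and the Rela-/-Relb-/-Rel-/- arrays were above the Rela-/-Nfkb2-/- arrays by 0.83 ± 0.21.

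Col2a1, the collagen of cartilage, went the other way. It read 11.78 and 11.94 in untreated WT cells and between 5.50 and 5.83 on the untreated mutant arrays, none of which was above background. The difference from WT was at least 67.7-fold in Rela-/-Nfkb2-/- cells (adjusted p = 1.07e-07) and at least 61.7-fold in Rela-/-Relb-/-Rel-/- cells (adjusted p = 4.67e-08). Of 7 chondrocyte and osteoblast markers, 2 were above background on both untreated WT arrays, 2 in Rela-/-Nfkb2-/- cells and 1 in Rela-/-Relb-/-Rel-/- cells, with summed signals of 759 to 791, 580 to 861 and 212 to 221. Sox9, a transcription factor known to act on Col2a1 in cartilage, was at least 10.2-fold lower than in WT in untreated Rela-/-Relb-/-Rel-/- cells (adjusted p = 2.77e-05), its difference in Rela-/-Nfkb2-/- cells did not pass, and Matn1, a cartilage matrilin, was not above background in any group. Their part in the Col2a1 difference was not tested.

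The other fibrillar chains differed less. Col1a1, the main chain of collagen I, was 2.28-fold higher in Rela-/-Nfkb2-/- cells (adjusted p = 0.0107). Col5a1 was 2.03-fold higher there (adjusted p = 0.00238) and 1.52-fold lower in Rela-/-Relb-/-Rel-/- cells (adjusted p = 0.0194), and the mutant lines differed from each other by 1.62 ± 0.17 (adjusted p = 7.96e-05). Col1a2, the partner of Col1a1 in collagen I, was not called in any comparison, and its replicates were far apart, at 11.18 and 12.82 in untreated Rela-/-Nfkb2-/- and 11.20 and 12.17 in untreated Rela-/-Relb-/-Rel-/- cells. Col11a1, a chain of the minor collagen XI, was above background only in Rela-/-Nfkb2-/- cells, at 6.25 and 6.26 untreated, at least 1.31-fold above WT (adjusted p = 0.0254). Without the filter on dim probes, which also enters into the choice of its probe, the Col11a1 difference turned to -0.33 and did not pass.

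Collagen IV chains are encoded by genes that sit next to each other in pairs, Col4a1 with Col4a2, Col4a3 with Col4a4, and Col4a5 with Col4a6. The sequences below show the shared or neighbouring start regions of these pairs, since both members of a pair, or only 1 of them, changed in the comparisons that follow. They are RefSeq promoter windows of build GRCm38.p6 from 250 bases before to 50 bases after the annotated start, and a window was at hand for 27 of the 39 members (33 windows). Capitals mark matches, on either strand, to CCAAT or GGGCGG. The Col4a1 window, chr8:11312777-11313076 on the minus strand, shares 78 bases with that of Col4a2, which runs the other way and starts 21 bases from it. The annotated interval of Col4a3 begins inside the Col4a4 window, chr1:82586800-82587099 on the minus strand. Col4a5, chrX:141475169-141475468 on the plus strand, and Col4a6, chrX:141474027-141474326 on the minus strand, have starts 1343 bases apart.
Col4a1: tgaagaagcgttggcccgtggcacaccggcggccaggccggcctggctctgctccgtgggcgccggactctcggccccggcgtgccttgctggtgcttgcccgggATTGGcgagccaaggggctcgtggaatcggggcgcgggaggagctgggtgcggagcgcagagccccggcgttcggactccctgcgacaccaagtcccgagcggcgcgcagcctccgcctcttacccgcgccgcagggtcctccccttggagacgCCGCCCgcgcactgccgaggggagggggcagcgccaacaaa
Col4a4: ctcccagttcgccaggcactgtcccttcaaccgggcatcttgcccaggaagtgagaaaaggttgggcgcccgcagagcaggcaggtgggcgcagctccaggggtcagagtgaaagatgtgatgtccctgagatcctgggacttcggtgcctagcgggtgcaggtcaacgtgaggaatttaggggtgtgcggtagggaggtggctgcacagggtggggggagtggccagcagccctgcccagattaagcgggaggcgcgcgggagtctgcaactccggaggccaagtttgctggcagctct
Col4a5: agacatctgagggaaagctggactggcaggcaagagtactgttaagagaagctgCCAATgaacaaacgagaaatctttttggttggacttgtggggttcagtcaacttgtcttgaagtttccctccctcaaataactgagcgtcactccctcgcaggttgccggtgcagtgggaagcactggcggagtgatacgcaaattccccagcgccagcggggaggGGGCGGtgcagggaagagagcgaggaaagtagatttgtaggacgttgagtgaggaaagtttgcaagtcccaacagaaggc
Col4a6: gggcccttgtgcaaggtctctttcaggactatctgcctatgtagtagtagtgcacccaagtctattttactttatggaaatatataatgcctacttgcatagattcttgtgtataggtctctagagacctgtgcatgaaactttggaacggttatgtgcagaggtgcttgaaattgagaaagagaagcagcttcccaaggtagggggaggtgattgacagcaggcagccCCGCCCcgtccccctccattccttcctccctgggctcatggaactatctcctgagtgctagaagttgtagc

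CCAAT was in 42.4% of the 33 member windows and in 37.4% of all 32851 windows of that length, GGGCGG in 60.6% and 35.7%, TATAAA in 18.2% and 13.6%, TGANTCA in 3.03% and 7.81%, and the kappaB motif, searched by its name as GGG, 1 purine, any base, A or T, 2 pyrimidines and CC, in 6.06% and 4.51%. The member windows with a kappaB match were those of Col9a1 and Thbs2, and no window printed here holds one. A match is only a run of letters in this window.

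Of the 6 collagen IV chains, Col4a1, Col4a2 and Col4a5 were higher than WT in both mutant lines, and Col4a3, Col4a4 and Col4a6 passed in that direction only in Rela-/-Relb-/-Rel-/- cells. Col4a1, the common chain of collagen IV, read 11.31 and 11.18 in untreated WT, 14.30 and 14.12 in Rela-/-Nfkb2-/- cells and 13.60 and 13.38 in Rela-/-Relb-/-Rel-/- cells. It was 7.80-fold and 4.73-fold higher in the mutant lines than in WT (adjusted p = 4.18e-06 and 9.78e-06), and its neighbour Col4a2 was 3.62-fold and 2.35-fold higher (adjusted p = 0.000153 and 0.000998). No array of 1 group overlapped another for either gene.

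Col4a3 and Col4a4, chains of the glomerular basement membrane, were above background only in Rela-/-Relb-/-Rel-/- cells. On the untreated arrays Col4a4 read 5.01 and 5.01 in WT, 4.95 and 4.97 in Rela-/-Nfkb2-/- cells and 8.89 and 9.03 in Rela-/-Relb-/-Rel-/- cells. Col4a3 read 5.05 and 5.10, 5.09 and 5.06, and 7.55 and 7.36 in the same groups. Their Rela-/-Relb-/-Rel-/- arrays stood at least 8.52-fold and at least 3.00-fold above WT (adjusted p = 3.67e-05 and 5.62e-05). On these probes they remained above background after TNF, at 9.80 and 8.33 for Col4a4 and 7.14 and 6.30 for Col4a3. A dimmer probe of Col4a4, above background on only 2 arrays, was also higher than WT in untreated Rela-/-Relb-/-Rel-/- cells (1.31 on the log2 scale, adjusted p = 0.000113). After TNF that probe fell there (-0.79, adjusted p = 0.0319), where the brightest did not (0.11).

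In the third pair, Col4a6 was higher than WT only in Rela-/-Relb-/-Rel-/- cells, while Col4a5 was higher in both mutant lines. Col4a6 read 8.70 and 8.61 in untreated WT, 8.30 and 7.86 in Rela-/-Nfkb2-/- cells and 10.90 and 10.84 in Rela-/-Relb-/-Rel-/- cells, and was 4.63-fold higher than WT in the latter (adjusted p = 3.57e-05). Col4a5 read 11.24 and 11.30, 12.19 and 12.00, and 12.50 and 12.24, and was 1.77-fold and 2.14-fold higher in the mutant lines (adjusted p = 0.0199 and 0.00256). A second probe of Col4a6 was also higher in Rela-/-Relb-/-Rel-/- cells, by 2.45 on the log2 scale (adjusted p = 0.00378).

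Col18a1, the parent of endostatin, and Col7a1, the anchoring fibril collagen below epithelia, were low in Rela-/-Relb-/-Rel-/- cells. Col18a1 read 13.01 and 13.01 in untreated WT, 13.27 and 13.30 in Rela-/-Nfkb2-/- cells and 9.09 and 9.29 in Rela-/-Relb-/-Rel-/- cells, which is 14.1-fold lower than WT (adjusted p = 1.91e-06). Col7a1 read 9.66 and 8.92, 7.95 and 8.10, and 5.80 and 6.26 in the same order, with 1 of the last 2 arrays above background, and was 2.40-fold and 9.61-fold lower than WT (adjusted p = 0.0113 and 1.87e-05). Over the 10 basement membrane glycoproteins tested of 12 on the array, 4 were higher and 3 lower in Rela-/-Relb-/-Rel-/- than in WT cells (70.0%, against 37.7% of all features). Nid2, a nidogen that links laminin to collagen IV, was higher by 4.72, its relative Nid1 4.01-fold lower, Lamb3, a laminin chain of epithelia, at least 1.96-fold higher and Lama2, a laminin chain of muscle, lower (-1.80).

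Both members of collagen VI, whose beaded filaments surround cells, were higher in both mutant lines. Col6a2 read 8.67 and 9.66 in untreated WT, 10.67 and 11.41 in Rela-/-Nfkb2-/- cells and 12.18 and 11.80 in Rela-/-Relb-/-Rel-/- cells, a difference of 1.87 ± 0.43 (adjusted p = 0.0142) and 2.83 ± 0.43 (adjusted p = 0.00082). Col6a1 differed by 0.80 ± 0.19 and 0.98 ± 0.19 (adjusted p = 0.0165 and 0.00341). Its second probe, above background on all 12 arrays, was also called higher in Rela-/-Nfkb2-/- cells (adjusted p = 0.0199). The dimmest probe of Col6a1, above background on 10 arrays, did not pass there (adjusted p = 0.0819). Col17a1, a transmembrane collagen of hemidesmosomes, read 7.23 and 7.37 in WT, 5.96 and 6.10 in Rela-/-Nfkb2-/- cells and 6.47 and 6.37 in Rela-/-Relb-/-Rel-/- cells, and was 2.41-fold and 1.84-fold lower in the mutants (adjusted p = 0.000762 and 0.00347). Its other 2 probes were also lower in both mutants, but put Rela-/-Relb-/-Rel-/- below Rela-/-Nfkb2-/- cells where the brightest probe put it above (0.39, not called). Of these 2 differences, -0.64 did not pass limma's test (adjusted p = 0.235) and -0.80 did (adjusted p = 0.0447). Neither fibril-associated collagen, Col16a1 and Col9a1, was called in any comparison. Col28a1, a collagen with von Willebrand domains, was above background only in untreated Rela-/-Nfkb2-/- cells, at 6.19 and 5.94, at least 1.14-fold above WT (adjusted p = 0.00516).

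Col8a2, a short-chain collagen known from Descemet's membrane of the cornea, was above background in Rela-/-Nfkb2-/- cells only. It read 5.13 and 4.91 in untreated WT, 8.05 and 7.50 in Rela-/-Nfkb2-/- cells and 5.08 and 5.07 in Rela-/-Relb-/-Rel-/- cells, at least 3.75-fold higher than WT in Rela-/-Nfkb2-/- cells (adjusted p = 2.42e-05). Its RefSeq promoter window, chr4:126286544-126286843 on the plus strand of GRCm38.p6, is shown because the gene returns below among those that fell after TNF. Capitals mark 4 matches to GGGCGG on either strand, of which the last 2 overlap each other.
Col8a2: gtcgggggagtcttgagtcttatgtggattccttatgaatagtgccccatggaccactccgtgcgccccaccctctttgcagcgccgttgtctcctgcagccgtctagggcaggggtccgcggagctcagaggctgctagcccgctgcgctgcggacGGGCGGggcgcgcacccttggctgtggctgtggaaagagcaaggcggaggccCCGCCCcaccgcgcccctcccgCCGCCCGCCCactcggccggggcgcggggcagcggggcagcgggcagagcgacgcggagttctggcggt

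Of the lysyl oxidase genes, which cross-link collagen and elastin, Loxl1 differed most. Loxl1 read 14.53 and 14.36 in untreated WT, 14.68 and 14.45 in Rela-/-Nfkb2-/- cells and 8.13 and 7.91 in Rela-/-Relb-/-Rel-/- cells. The Rela-/-Relb-/-Rel-/- arrays were 85.8-fold below WT (adjusted p = 3.12e-08) and 93.4-fold below Rela-/-Nfkb2-/- cells (adjusted p = 3.63e-08), while WT and Rela-/-Nfkb2-/- arrays overlapped. Loxl2 read 9.22 and 9.11, 10.22 and 10.15, and 8.24 and 7.90 in the same order, 2.03-fold higher and 2.13-fold lower than WT (adjusted p = 0.00143 and 0.000508). Lox itself was not called in any comparison, at 14.15 to 14.89 over the 12 arrays.

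Fbln1, a glycoprotein of elastic fibres and basement membranes, also separated the mutant lines. It read 12.57 and 12.69 in untreated WT, 13.10 and 13.41 in Rela-/-Nfkb2-/- cells and 7.96 and 8.34 in Rela-/-Relb-/-Rel-/- cells, 22.3-fold below WT in the latter (adjusted p = 3.23e-07), and a second probe was lower too, by -3.60 (adjusted p = 2.58e-06). Fbln2, of the same family, was not called, with 13.72 to 14.71 over the 12 arrays, although 1 of its 2 other probes was called higher in untreated Rela-/-Relb-/-Rel-/- cells. Fbn2, a fibrillin of embryonic microfibrils, was above background only in Rela-/-Nfkb2-/- cells, untreated at 7.21 and 7.58, at least 2.87-fold above WT (adjusted p = 1.31e-05).

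Among the proteoglycans, Dcn, the small leucine-rich proteoglycan decorin, read 12.64 and 12.53 in untreated WT, 12.68 and 13.19 in Rela-/-Nfkb2-/- cells and 14.03 and 14.29 in Rela-/-Relb-/-Rel-/- cells. It was 2.96-fold higher than WT in the last group, or 1.57 on the log2 scale (adjusted p = 0.00181). Its second probe agreed in direction there but gave a larger difference, 2.93 on the log2 scale (adjusted p = 0.0072). Vcan, the large hyaluronan-binding proteoglycan versican, read 5.58 and 6.18 in untreated WT (1 array above background), 7.07 and 7.06 in Rela-/-Nfkb2-/- cells and 5.43 and 5.04 in Rela-/-Relb-/-Rel-/- cells, where it was not above background. Its difference of 1.18 ± 0.30 between Rela-/-Nfkb2-/- and WT cells passed (adjusted p = 0.0226). Bgn, the relative biglycan, was not called in any comparison, and Lum, lumican, was not called either, with replicates as far apart as 7.45 and 5.85 in untreated Rela-/-Nfkb2-/- cells.

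The adhesive and matricellular genes were led by Smoc1, a calcium-binding SPARC relative of basement membranes. Smoc1 read 8.13 and 7.50 in untreated WT, 11.20 and 10.90 in Rela-/-Nfkb2-/- cells and 5.25 and 5.00 in Rela-/-Relb-/-Rel-/- cells, the last not above background. It was 9.41-fold above WT in Rela-/-Nfkb2-/- cells (adjusted p = 1.83e-05) and at least 3.74-fold below WT in Rela-/-Relb-/-Rel-/- cells (adjusted p = 2.77e-05). Thbs2, an antiangiogenic thrombospondin, split the same way, at 11.14 and 11.07 in WT, 12.92 and 12.37 in Rela-/-Nfkb2-/- cells and 9.87 and 9.50 in Rela-/-Relb-/-Rel-/- cells (2.91-fold higher, adjusted p = 0.00426, and 2.67-fold lower, adjusted p = 0.00367). Thbs1, which can activate latent TGF-β, read 8.63 and 7.31 in untreated WT, 10.21 and 10.69 in Rela-/-Nfkb2-/- cells and 9.46 and 9.42 in Rela-/-Relb-/-Rel-/- cells, a difference of 2.47 ± 0.47 and 1.47 ± 0.47 (adjusted p = 0.00541 and 0.0365). Sparc, a collagen-binding glycoprotein, read 13.82 and 13.60, 13.85 and 14.43, and 14.96 and 15.08 in the same order, and was 2.47-fold above WT in Rela-/-Relb-/-Rel-/- cells (adjusted p = 0.00164). Its second probe was also called in Rela-/-Nfkb2-/- cells (0.93 on the log2 scale, adjusted p = 0.0363), where the brightest was not (0.43). Postn, periostin, and Tnc, tenascin C, were not called between untreated lines.

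Markers of cell type were counted beside these differences. Of 10 fibroblast markers tested, 3 were higher, 0 lower and 7 not called in Rela-/-Nfkb2-/- cells (median 0.18), and 0 were higher, 5 lower and 5 not called in Rela-/-Relb-/-Rel-/- cells (median -0.95). Against WT, Pdgfra, the receptor that marks many mesenchymal cells, was higher by 3.06 in Rela-/-Nfkb2-/- cells and lower (-2.15) in Rela-/-Relb-/-Rel-/- cells, Thy1 was at least 220-fold higher in Rela-/-Nfkb2-/- cells, Twist2, a mesenchymal transcription factor, was at least 55.5-fold lower in Rela-/-Relb-/-Rel-/- cells, and Krt8 was at least 43.9-fold higher there. Among 3 epithelial markers tested, 1 was higher and 0 lower than WT in Rela-/-Nfkb2-/- cells, and 2 were higher and 0 lower in Rela-/-Relb-/-Rel-/- cells. Among 3 endothelial markers tested, 1 was higher and 0 lower in Rela-/-Nfkb2-/- cells, and 0 were called in Rela-/-Relb-/-Rel-/- cells. Of 3 smooth muscle and myofibroblast markers tested, 1 was higher, 1 lower and 1 not called in Rela-/-Nfkb2-/- cells. In Rela-/-Relb-/-Rel-/- cells 1 was higher, 0 lower and 2 not called. Tagln, an actin-binding protein of contractile cells, was the higher one in both lines (3.11 and 3.07), and Des was the lower one in Rela-/-Nfkb2-/- cells (-1.03). Pparg, the 1 adipocyte marker tested, was lower in both lines (-1.25 and -2.93). Summed over the 11 fibroblast markers the untreated signal was 55252 to 56663 in WT, 72889 to 77012 in Rela-/-Nfkb2-/- cells and 42120 to 44099 in Rela-/-Relb-/-Rel-/- cells. Their part in the matrix differences was not tested.

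Genes around the members in the pathway were counted from fixed lists. Of 17 collagen processing enzymes tested (20 on the array), 6 were higher and 2 lower than WT in Rela-/-Nfkb2-/- cells (47.1% called, against 20.5% of all features), and 2 were higher and 4 lower in Rela-/-Relb-/-Rel-/- cells (35.3%, against 37.7%). P3h2, a prolyl 3-hydroxylase, was at least 7.53-fold higher in Rela-/-Nfkb2-/- cells, Pcolce2, an enhancer of procollagen trimming, at least 5.05-fold, and Plod1, a lysyl hydroxylase, was higher by 1.49 there and lower (-0.59) in Rela-/-Relb-/-Rel-/- cells. Of 22 matrix-associated fibril regulators tested (31 on the array), 10 were higher and 4 lower in Rela-/-Nfkb2-/- cells (63.6%), and 2 were higher and 9 lower in Rela-/-Relb-/-Rel-/- cells, or 11 of 22. Mfap4, a protein of microfibrils, was at least 23.5-fold higher in Rela-/-Nfkb2-/- cells, and Tgfbi, a collagen-binding adhesion protein, was lower (-7.53, adjusted p = 6.3e-08) in Rela-/-Relb-/-Rel-/- cells. Of 21 matrix receptors tested (27 on the array), 2 were higher and 2 lower in Rela-/-Nfkb2-/- cells, and 4 were higher and 5 lower in Rela-/-Relb-/-Rel-/- cells (4 and 9 of 21, against 20.5% and 37.7% of all features), where Sdc3, a heparan sulfate syndecan, and Itga11, a collagen-binding integrin chain, were lower (-6.23 and -3.94).

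After TNF no matrix gene of WT cells passed the threshold. In WT 0 of 39 members passed limma's test, where 1.2% of all features did (0.857% up and 0.339% down), and 6 had an unadjusted p under 0.05 (Col5a2, Col5a3, Dcn, Lum, Thbs1 and Vcan). In Rela-/-Relb-/-Rel-/- cells 0 of 39 passed, where 2.18% of all features did (1.39% up and 0.798% down), and 8 had an unadjusted p under 0.05. In Rela-/-Nfkb2-/- cells 2 members rose and 6 fell, or 20.5% of the 39, where 19.7% of all features passed (8.03% up and 11.6% down), so the share of members called was near that of the array as a whole, and 4 of the 23 members above background throughout passed, against 19.1% of their kind. Medians of the members were 0.02 in WT, -0.12 in Rela-/-Nfkb2-/- cells and -0.05 in Rela-/-Relb-/-Rel-/- cells, against -0.04, 0.00 and -0.01 over all features.

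**Figure D3:**
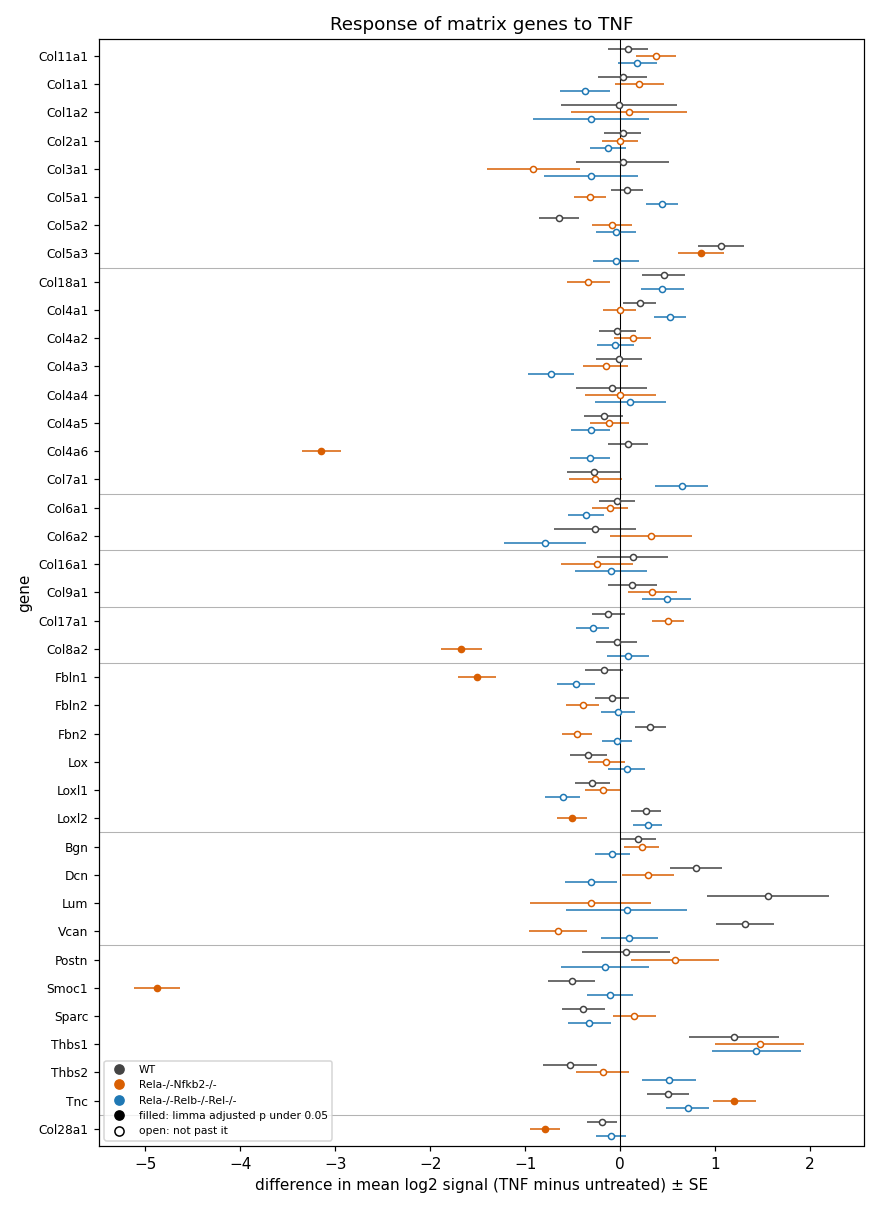
Response to TNF (mean log2 signal of the TNF arrays minus that of the untreated arrays ± SE, 2 arrays a group) of the 39 matrix genes in the 3 genotypes, with filled points at a limma adjusted p under 0.05. The 8 filled points all belong to Rela-/-Nfkb2-/- cells, with Smoc1 (-4.88) and Col4a6 (-3.15) farthest from 0.

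Smoc1 had the largest response among the members. In Rela-/-Nfkb2-/- cells it went from 11.20 and 10.90 untreated to 6.36 and 5.98 after TNF, a 29.4-fold fall (adjusted p = 1.07e-05). WT cells went from 8.13 and 7.50 to 7.46 and 7.15 (-0.51 ± 0.24, not called), with TNF arrays below untreated arrays, and Rela-/-Relb-/-Rel-/- cells were not above background in either group. The response of Rela-/-Nfkb2-/- cells differed from that of WT by -4.37 ± 0.34 (adjusted p = 0.00033). Its difference from Rela-/-Relb-/-Rel-/- cells, 4.77 ± 0.34 as the latter minus the former (adjusted p = 0.000248), rests on a group without measurable signal.

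Col4a6 fell in the same cells below detection. It read 8.30 and 7.86 untreated and 4.91 and 4.96 after TNF, neither above background, a fall of at least 4.25-fold (adjusted p = 3.43e-05). In WT cells it went from 8.70 and 8.61 to 8.52 and 8.96, and in Rela-/-Relb-/-Rel-/- cells from 10.90 and 10.84 to 10.70 and 10.40, and neither response was called. The responses differed by -3.23 ± 0.29 between Rela-/-Nfkb2-/- and WT cells and by 2.83 ± 0.29 between Rela-/-Relb-/-Rel-/- and Rela-/-Nfkb2-/- cells (adjusted p = 0.000784 and 0.00118). Its neighbour Col4a5 read 12.19 and 12.00 untreated and 12.20 and 11.76 after TNF in Rela-/-Nfkb2-/- cells (-0.12 ± 0.20, not called), with overlapping arrays. The second probe of Col4a6 gave -1.55 in Rela-/-Nfkb2-/- cells, which did not pass (adjusted p = 0.0548). By that probe the response did not differ from that of WT (-1.59, adjusted p = 0.273). Nor did its difference from Rela-/-Relb-/-Rel-/- cells pass (0.87 as the latter minus Rela-/-Nfkb2-/-, adjusted p = 0.528).

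Another collagen and a fibulin that were measured in untreated Rela-/-Nfkb2-/- cells also fell. Col8a2 went from 8.05 and 7.50 to 6.34 and 5.87, with 1 of the 2 TNF arrays above background, a difference of -1.67 ± 0.22 (adjusted p = 0.00117), and was not above background in the other genotypes, so its differences between responses (-1.64 from WT and 1.76 as Rela-/-Relb-/-Rel-/- minus Rela-/-Nfkb2-/-, adjusted p = 0.0239 and 0.0145) add nothing to its fall. Fbln1 went from 13.10 and 13.41 to 11.84 and 11.66 in Rela-/-Nfkb2-/- cells, 2.84-fold down (adjusted p = 0.00137), and its second probe fell as well (-2.04, adjusted p = 0.000568). WT arrays of Fbln1 overlapped, at 12.57 and 12.69 untreated and 12.33 and 12.58 after TNF, and Rela-/-Relb-/-Rel-/- arrays went from 7.96 and 8.34 to 7.53 and 7.84 (-0.47 ± 0.20, not called). The Fbln1 response differed from that of WT by -1.33 ± 0.29 (adjusted p = 0.0376). That call was lost without 9 of the 12 arrays in turn, with an adjusted p of up to 0.155 without WT TNF replicate 2 (-1.21).

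Smaller falls in Rela-/-Nfkb2-/- cells were those of Loxl2 and Col28a1. Loxl2 went from 10.22 and 10.15 to 9.68 and 9.68 (-0.51 ± 0.15, adjusted p = 0.0488), a call lost without 10 of the 12 arrays in turn (adjusted p of up to 0.172 without Rela-/-Nfkb2-/- TNF replicate 1, at -0.51). Col28a1 went from 6.19 and 5.94 to 5.37 and 5.18, no longer above background, a fall of at least 1.05-fold (adjusted p = 0.00915), lost without Rela-/-Nfkb2-/- untreated replicate 1 or TNF replicate 2 (adjusted p of up to 0.0669, at -0.69). Of the 6 genes that fell, Smoc1, Col8a2, Fbln1, Loxl2 and Col28a1 had brighter untreated arrays in Rela-/-Nfkb2-/- cells than in the other lines, and both comparisons use the same 2 untreated arrays. Col28a1 and Col8a2 became members only through the untreated Rela-/-Nfkb2-/- group, so the filter itself favoured a fall from it, and their p-values do not allow for that.

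Tnc, a matricellular protein of wounds and inflamed tissue, rose in Rela-/-Nfkb2-/- cells. It read 12.27 and 12.47 untreated and 13.62 and 13.53 after TNF, a 2.30-fold rise (adjusted p = 0.00666), and each of its other 4 probes rose too, by 1.23 to 1.78. WT arrays went from 12.59 and 12.06 to 13.04 and 12.62 and Rela-/-Relb-/-Rel-/- arrays from 12.53 and 12.28 to 12.99 and 13.24, above the untreated arrays of their genotype but not called (0.50 ± 0.22 and 0.71 ± 0.22). The difference between the responses of Rela-/-Nfkb2-/- and WT cells did not pass for Tnc. A RefSeq promoter window of Tnc, chr4:64046887-64047186 on the minus strand of GRCm38.p6, is shown because the 5 probes of Tnc that passed the filter shared its rise. Capitals mark a TATAAA and a GGGCGG match.
Tnc: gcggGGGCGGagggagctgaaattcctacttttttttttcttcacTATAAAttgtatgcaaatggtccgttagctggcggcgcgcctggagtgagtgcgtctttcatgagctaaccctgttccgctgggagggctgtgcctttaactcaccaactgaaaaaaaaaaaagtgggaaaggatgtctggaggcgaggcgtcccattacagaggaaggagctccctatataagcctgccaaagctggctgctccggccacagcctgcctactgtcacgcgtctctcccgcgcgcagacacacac

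Col5a3, the least abundant chain of collagen V, went from 6.17 and 6.40 to 7.28 and 6.99 in Rela-/-Nfkb2-/- cells (0.85 ± 0.24, adjusted p = 0.0367) and from 6.36 and 6.46 to 7.09 and 7.85 in WT cells, where the estimate was larger but not called (1.06 ± 0.24). Rela-/-Relb-/-Rel-/- arrays overlapped, at 6.49 and 6.37 before and 6.35 and 6.41 after TNF. The call in Rela-/-Nfkb2-/- cells was lost without 8 of the 12 arrays in turn (adjusted p of up to 0.195 without Rela-/-Nfkb2-/- TNF replicate 1, at 0.71).

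Among the TNF comparisons Vcan was called only in the difference between responses of Rela-/-Nfkb2-/- and WT cells. In WT cells it went from 5.58 and 6.18 to 6.90 and 7.50 (1.31 ± 0.30), in Rela-/-Nfkb2-/- cells from 7.07 and 7.06 to 6.76 and 6.06 (-0.65 ± 0.30), and neither passed, while the difference of -1.97 ± 0.43 did (adjusted p = 0.0394). Leaving out 9 of the 12 arrays in turn ended that call (adjusted p of up to 0.155 without WT TNF replicate 2, at -1.67). No response differed between Rela-/-Relb-/-Rel-/- and WT cells (0 of 39 by limma, 5 at an unadjusted p under 0.05), where 0.847% of all features did (0.439% higher and 0.409% lower). For Rela-/-Nfkb2-/- minus WT 5 members passed, all lower, against 4.09% of all features (1.17% higher and 2.92% lower), and for Rela-/-Relb-/-Rel-/- minus Rela-/-Nfkb2-/- 3 members passed, all higher, against 4.97% (3.65% higher and 1.33% lower). Of the 23 members above background on all arrays, limma called 0 in either difference, against 1.25% and 1.82% of their kind, while 10 and 11 of the 39 members had an unadjusted p under 0.05.

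Thbs1 was brighter after TNF in every genotype without passing in any when the replicate number was left out of the fit. WT arrays went from 8.63 and 7.31 to 9.69 and 8.65, Rela-/-Nfkb2-/- arrays from 10.21 and 10.69 to 12.23 and 11.60, and Rela-/-Relb-/-Rel-/- arrays from 9.46 and 9.42 to 10.62 and 11.12. In each genotype both TNF arrays were above both untreated arrays, in WT by as little as 8.65 against 8.63. A TNF effect averaged over the 3 genotypes, a contrast added after the values were seen, was 1.37 ± 0.27 for Thbs1 (adjusted p = 0.0101), 0.81 ± 0.13 for Tnc (adjusted p = 0.00419) and -0.36 ± 0.11 for Loxl1 (adjusted p = 0.0451). With Col28a1 these were the members whose TNF and untreated arrays separated in the same direction in all 3 genotypes. Col28a1 was not above background on any array of WT or Rela-/-Relb-/-Rel-/- cells, so its separation there is between signals that were not detected. Other members that passed this contrast were Col5a3 (0.62), Col28a1 (-0.36), Col8a2 (-0.54), Fbln1 (-0.71), Col4a6 (-1.13) and Smoc1 (-1.83). Taken by genotype, each of these was called in Rela-/-Nfkb2-/- cells alone. Of all features 18.4% passed the averaged contrast (7.7% up and 10.7% down).

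**Figure D4:**
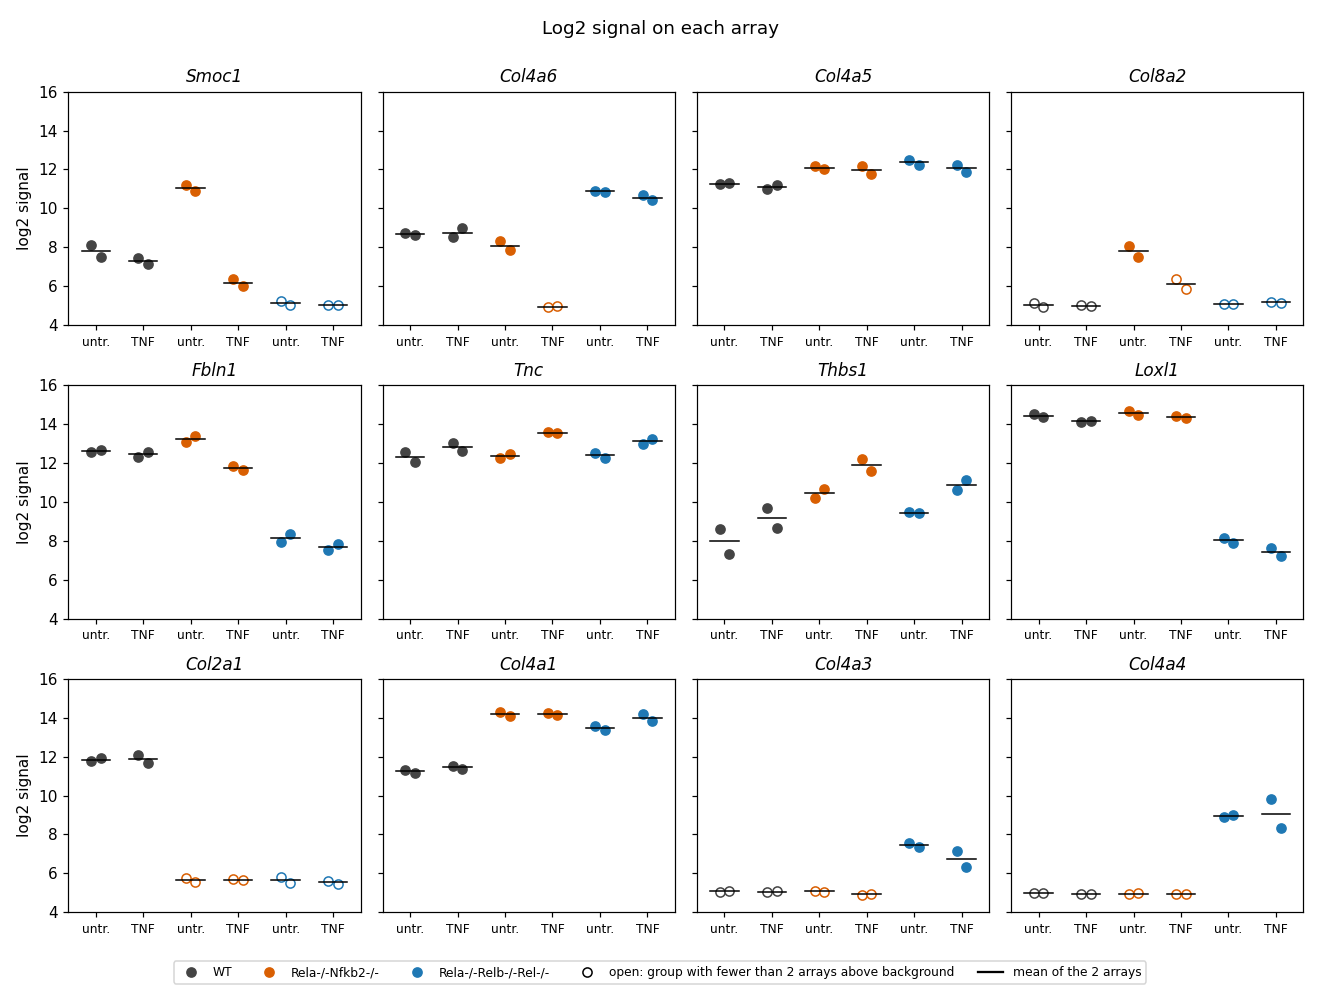
Log2 signal on each of the 12 arrays for 12 matrix genes, untreated and TNF groups of WT (grey), Rela-/-Nfkb2-/- (orange) and Rela-/-Relb-/-Rel-/- cells (blue), with lines at the mean of the 2 arrays and open points for groups with fewer than 2 arrays above background. Smoc1, Col4a6, Col8a2 and Fbln1 fall from untreated to TNF in the orange groups, while Col4a5 and Col4a1 keep their level, and Thbs1 and Tnc are brighter after TNF in all 3 genotypes.

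Other matrix pathway genes in Rela-/-Nfkb2-/- cells were counted likewise, where 19.7% of all features passed. Of the 17 processing enzymes 0 rose and 5 fell after TNF (29.4%), among them Pcolce2 (-1.35), Plod1 (-1.22), P3h2 (-1.08) and P4ha1 (-0.79), a prolyl 4-hydroxylase. Of the 22 fibril regulators 1 rose and 6 fell (31.8%), with Fmod, the collagen-binding proteoglycan fibromodulin, at least 10.6-fold lower, Tgfbi at -2.40 and Prelp, another leucine-rich proteoglycan, at -2.12. Of the 21 matrix receptors 3 rose and 3 fell (28.6%), and Itga2, the collagen-binding chain of integrin α2β1, rose in all genotypes, at least 8.29-fold in Rela-/-Nfkb2-/-, at least 4.32-fold in WT and at least 3.66-fold in Rela-/-Relb-/-Rel-/- cells. Of the 10 basement membrane glycoproteins 1 rose (Nid1) and 2 fell (Nid2 and Agrn), or 30.0%. Of the 10 fibroblast markers, Pdgfrb and Twist1 fell (-1.40 and -0.68), Thy1 rose (0.74) and 7 were not called in the same cells, and their part was not tested.

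Some calls of untreated differences, large ones included, ended when a single array was left out. Against WT, 12 of 21 calls in Rela-/-Nfkb2-/- cells held without each array, and those of Col11a1, Col1a1, Col28a1, Col3a1, Col4a5, Col6a1, Col6a2, Col7a1 and Vcan did not. For 8 of these 9 the highest adjusted p, 0.0684 (Col1a1) to 0.181 (Col11a1), came without WT untreated replicate 1, where the differences were 1.15 for Col1a1, 0.57 for Col11a1, 2.11 for Col3a1, 0.80 for Col4a5, 0.64 for Col6a1, 1.38 for Col6a2, -0.89 for Col7a1 and 0.88 for Vcan. For Col28a1 it was 0.0525, without WT untreated replicate 2, at 0.73. In Rela-/-Relb-/-Rel-/- cells 21 of 23 calls held, and Col5a1 (0.101 without WT untreated replicate 2, at -0.56) and Thbs1 (0.257 without the same array, at 0.81) did not. Between the mutant lines 16 of 21 held, and Col4a1 (0.0805), Col4a2 (0.182), Col5a2 (0.112) and Dcn (0.0568), each without Rela-/-Relb-/-Rel-/- untreated replicate 2, and Sparc (0.0885, without Rela-/-Nfkb2-/- untreated replicate 1) did not. Smoc1, Col2a1, Loxl1, Fbln1, Col18a1, Col4a4 and Col4a3 were not among them. The 8 members called in none of the 9 comparisons were Bgn, Col16a1, Col1a2, Col9a1, Fbln2, Lox, Lum and Postn.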

How the data were processed

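RNA of 12 MEF samples was hybridised to Illumina MouseRef-8 v2.0 BeadChips (25697 probes), 1 colour and 2 arrays per group. The authors deposited a raw intensity (signal) and a detection p-value for each probe and array, exported from GenomeStudio (version not given in the sources used here), and a background-subtracted, quantile-normalized intensity that a service company had made. Raw signals were corrected and quantile normalized with neqc (offset 16) of limma 3.58.1 in R 4.3.3, which gives log2 values and removes any shift shared by most genes. The offset pulls ratios of dim probes toward 0. A probe stayed in when both arrays of any group had a detection p-value under 0.05 (13387 probes), and the brightest of a gene was used (10031 features). Names came from the platform annotation, matched for 23962 probes by Entrez identifier to RefSeq genes of GRCm38.p6.

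A mean per group was fitted over all 12 arrays (lmFit, eBayes, 6 residual and 2.92 prior degrees of freedom), and 9 comparisons (3 TNF responses, 3 untreated differences and 3 differences between responses) were each adjusted by Benjamini-Hochberg over all features. The limma fit was also run on simulated log2 values with independent arrays and the same spread in every group, for the TNF response of WT alone. The unequal spread of the groups and the shared deviations of replicates were not simulated, so that run does not bear on the mutant comparisons. The number of arrays limits the precision. The members, their roles and the pathway lists were chosen with earlier results of these data known, and lists carry counts and medians, not tests. Values on every array are given for members called in a TNF response or a difference between responses and for the largest untreated differences each way, and other members by range, count or name. Alternatives were other background corrections, normalizations, filters and probe rules, the authors' values, the compared groups alone, the replicate number as a block, each array left out, and the Student's t-test of the methods. Another 3 genes of the definition are not reported here.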

Additional observations from a re-analysis of the deposited data

Results flagged for a closer look

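A difference between the TNF responses of 2 genotypes that passed limma's test is the reason each of these results is singled out. For Rela-/-Nfkb2-/- minus WT they were Smoc1 (-4.37), Col4a6 (-3.23), Vcan (-1.97), Col8a2 (-1.64) and Fbln1 (-1.33), all on the log2 scale. For Rela-/-Relb-/-Rel-/- minus Rela-/-Nfkb2-/- they were Smoc1 (4.77), Col4a6 (2.83) and Col8a2 (1.76). The same Rela-/-Nfkb2-/- arrays enter both sets. By the second probe of Col4a6 neither of its differences passed (-1.59 and 0.87). Smoc1 was not above background in Rela-/-Relb-/-Rel-/- cells, nor Col8a2 in WT or Rela-/-Relb-/-Rel-/- cells, so their values there repeat the response of Rela-/-Nfkb2-/- cells. With 2 arrays a group, outlying single arrays were not tested for.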

How the results depend on the processing

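Of 1726 values of called members under the alternatives, 1525 stayed past the threshold with the same sign, 199 kept the sign but not the call and 2 turned, both for Col11a1 without the filter on dim probes (-0.33 for untreated Rela-/-Nfkb2-/- against WT and 0.18 for untreated Rela-/-Relb-/-Rel-/- against Rela-/-Nfkb2-/- cells). With only probes above background on all 12 arrays, 23 of the 39 members were tested, and the calls came to 4 of 8 for TNF in Rela-/-Nfkb2-/- cells, 11 of 21 for untreated Rela-/-Nfkb2-/- and 15 of 23 for Rela-/-Relb-/-Rel-/- cells against WT, 10 of 21 between the mutant lines, and 0 of 5 and 0 of 3 for the differences between responses. Fitting the compared groups alone gave 1 call for TNF in WT, 3 in Rela-/-Nfkb2-/- cells and 2 for their difference. The methods' t-test after Benjamini-Hochberg gave 0 calls for TNF in Rela-/-Nfkb2-/- cells, 0 for untreated Rela-/-Nfkb2-/- and 9 for untreated Rela-/-Relb-/-Rel-/- cells against WT and 3 between the mutant lines, and unadjusted it gave 3 for TNF in WT cells and 1 in Rela-/-Relb-/-Rel-/- cells. Leaving out an array gave 0 to 1 calls for TNF in WT cells and 0 to 1 in Rela-/-Relb-/-Rel-/- cells, 5 to 7 in Rela-/-Nfkb2-/- cells, 13 to 21 for untreated Rela-/-Nfkb2-/- and 21 to 24 for untreated Rela-/-Relb-/-Rel-/- cells against WT, 16 to 22 between the mutant lines, 2 to 5 for Rela-/-Nfkb2-/- minus WT, 0 for Rela-/-Relb-/-Rel-/- minus WT and 2 to 6 for Rela-/-Relb-/-Rel-/- minus Rela-/-Nfkb2-/-. A group left with 1 array was assumed to vary like the others. The cause of these shifts was not tested, beyond the fewer genes or arrays that a setting holds. Median scaling moved the median of all features by -0.28 for TNF in Rela-/-Nfkb2-/- cells and by -0.23 in WT.

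Same-numbered replicates of 1 genotype deviated together over all features (r of 0.31 in WT, 0.67 in Rela-/-Nfkb2-/- cells and 0.70 in Rela-/-Relb-/-Rel-/- cells), those of WT and mutant cells did not (-0.19 to 0.00) and those of the mutant lines did (0.62 to 0.85), and the labels tie the numbers to nothing shared. With the replicate block, calls were 3 for TNF in WT (Col5a3, Lum and Vcan), 12 in Rela-/-Nfkb2-/- cells (Col3a1, Postn, Thbs1 and Vcan besides the 8) and 1 in Rela-/-Relb-/-Rel-/- cells (Thbs1), 22, 23 and 23 for the untreated differences in the order above, and 7, 0 and 5 for the differences between responses.

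Bead intensities near background limit Col28a1, Col9a1, Postn, Col11a1 and Lum, whose signals were at or close to the detection limit in most groups. Having 2 arrays a group limits every p-value.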
